A study of Rattus norvegicus with 12 samples.

Results

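Hormone and vitamin carrier proteins of plasma are made by hepatocytes and secreted into the blood. The 6 genes of this class followed here were Serpina7, Serpina6, Ttr, Rbp4, Gc and Alb, each taken by every probe set to which the platform annotation gave that gene symbol alone. This yielded 8 probe sets of the 31099 on the array, for 6 of 14217 annotated genes, and all 6 genes were measured. Gc and Alb had 2 probe sets each and the others had 1.

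The study asked how transcripts of rat hepatocytes depend on the time between the donor's death and isolation of the cells. The labels give the strain as Fischer 334 and describe cells freed from the liver with collagenase in 2 steps and taken for RNA without culture. The groups were heart-beating donors and donors dead for 4 h, 16 h or 30 h, with 3 different animals and 3 arrays per group (12 arrays in all). No age, sex, genotype or drug is given in the labels, and they name no condition other than death that distinguished the groups. Whether anything else differed between the groups is not known. Each value is 1 probe set's log2 signal on 1 array, normalized by the authors so that the arrays share nearly the same distribution, so 1 unit is a doubling relative to the rest of that array. Levels of different genes are not compared.

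Small lipophilic hormones and vitamins travel in blood bound to carriers, and only the unbound fraction enters cells freely. Serpina7 encodes thyroxine-binding globulin and Serpina6 corticosteroid-binding globulin (transcortin), which are serpins without protease inhibitor activity. Ttr encodes transthyretin, which carries thyroxine and also the retinol-binding protein encoded by Rbp4. Gc encodes the vitamin D-binding protein, a relative of albumin, and Alb encodes albumin itself, the most abundant plasma protein, which binds fatty acids, bilirubin and many hormones. In adult rats transthyretin is the main specific carrier of thyroxine, and thyroxine-binding globulin varies with age, nutrition and thyroid state.

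RefSeq promoters of the rat (GRCr8) were at hand for 5 of the 6 genes, all but Serpina6. The 250 bases before the start used for each gene were searched on both strands for GTTAAT. These letters are the core of the site bound by HNF1, a hepatocyte transcription factor known from the albumin promoter. Not every start was the outer end of its gene. The windows of Serpina7 (chrX:107457682-107457931) and Ttr (chr18:12218508-12218757) lay inside the spans that RefSeq gives these genes. The Alb window reached into the Alb gene. Other starts of these genes were not searched. The letters stood in the windows of Serpina7, Gc and Alb and not in those of Ttr and Rbp4. Among all 33469 promoters at hand, 6.45% held them. Stretches of 30 bases are printed to show these 6 letters, in capitals, in their surroundings, which were not compared. Each is read 5′ to 3′ on the strand that holds GTTAAT. They lie at chrX:107457702-107457731 (minus strand) for Serpina7, chr14:18916049-18916078 (plus strand) for Gc and chr14:17907044-17907073 (minus strand) for Alb. These matches describe letters only and do not show a bound site.
Serpina7: gtccgtggcatgGTTAATttgtgactagga
Gc: cccagtgacaaaGTTAATgattaaaacctc
Alb: aaggttagtgtgGTTAATgatctacagtta

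Of the 8 probe sets, 1 was lower at 30 h than in heart-beating donors by the fit across all probe sets: Serpina7, by a log2 difference of -1.73. Serpina6 and Ttr were lower by -0.28 and -0.17 with arrays that did not overlap, but missed the threshold, and the dimmer Gc probe set, at -0.26 with overlapping arrays, missed it too. Rbp4, the brighter Gc probe set and both Alb probe sets had differences between -0.05 and 0.01. At 4 h and 16 h no carrier probe set passed the threshold. In isolated cells measured in bulk, fewer hepatocytes and less RNA of a gene per hepatocyte cannot be told apart.

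**Figure D1:**
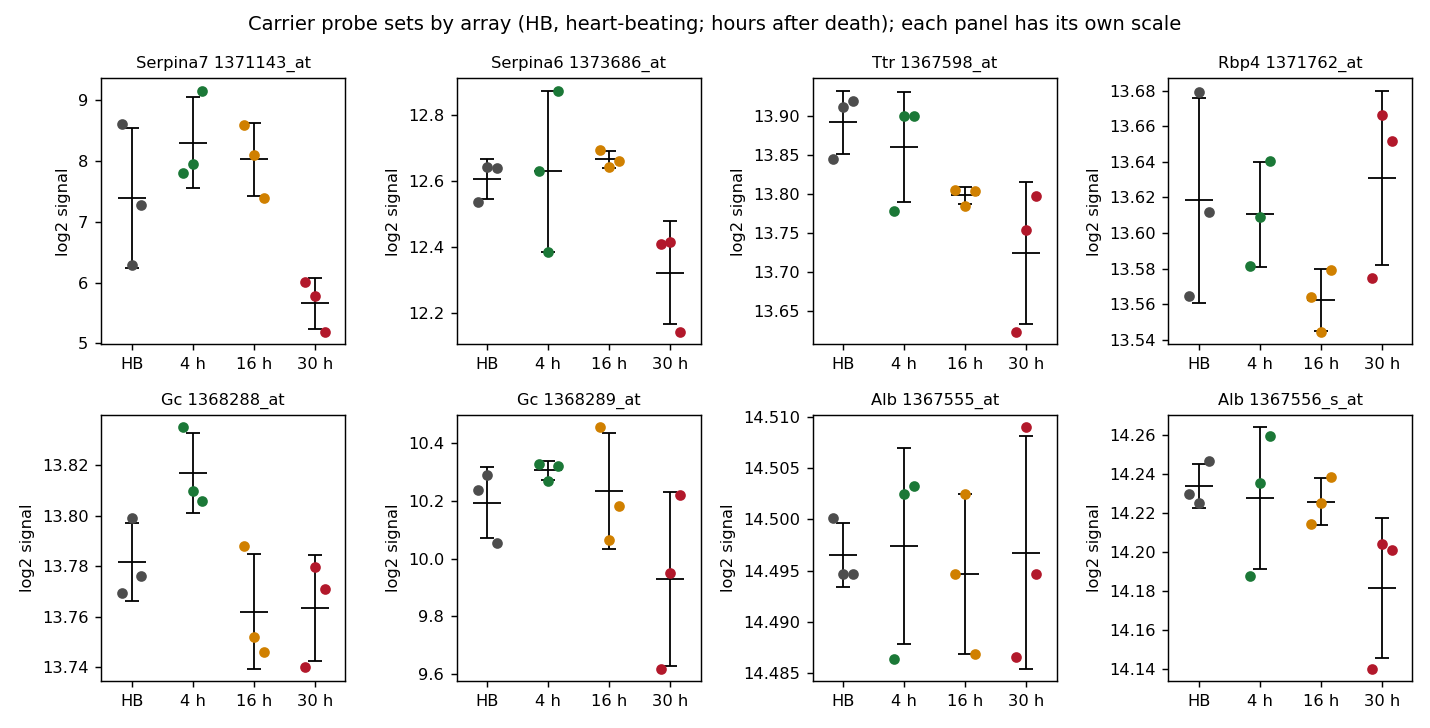
Log2 signal of each of the 8 carrier probe sets (vertical axes, each panel on its own scale) in heart-beating donors (HB) and donors dead for 4, 16 and 30 h; points are single arrays in the order of animal number, the long bar is the mean and the whiskers 1 SD (n = 3). Serpina7 at 30 h, 5.18 to 6.0, lies below all other arrays, while the whole axis of the brighter Alb probe set spans a few hundredths of a log2 unit.

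Serpina7, the gene of thyroxine-binding globulin, was the most variable of the 8. Its log2 signals were 8.60, 6.29 and 7.28 in heart-beating donors 1, 2 and 3, 7.80, 7.94 and 9.16 at 4 h, 8.59, 8.09 and 7.40 at 16 h, and 6.0, 5.78 and 5.18 at 30 h. All 3 arrays at 30 h lay below all 9 others, whereas the 4 h and 16 h arrays overlapped those of heart-beating donors. The means were 7.39 ± 1.16 in heart-beating donors, 8.30 ± 0.75 after 4 h, 8.03 ± 0.60 after 16 h and 5.66 ± 0.42 after 30 h (SD, n = 3 each). The order of means was thus 4 h, 16 h, heart-beating and 30 h, and neither the 4 h and 16 h means nor the 16 h and heart-beating means differed by more than their spread.

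At 30 h Serpina7 fell by 1.73 ± 0.50 log2 units (SE) against heart-beating donors, a 3.33-fold lower signal with a 95% interval of -2.82 to -0.65 (limma, adjusted p = 0.0282). This difference was the 42nd lowest among 31042 probe sets. The 30 h signals of Serpina7, 5.18 to 6.0, lay around the array medians of 5.83 to 5.90, in the dim part of the scale. Whether background signal affects the size of its differences at 30 h, or their spread, was not tested. The heart-beating donors differed among themselves by 2.31 log2 units, and their SD exceeded that of 99.9% of all probe sets. Over the 4 groups the within-group SD of Serpina7 was 0.78, against a median of 0.11 for probe sets with a mean of 5 to 8. The interval is narrower than that SD alone would give, because limma borrows spread from other probe sets. The call did not hold in every fit. It was lost with a variance trend and robust settings (adjusted p = 0.0869), with only the 2 groups fitted (adjusted p = 0.0577) and with an RNA quality covariate (adjusted p = 0.552), and it depended on single animals. Without heart-beating donor 1, the highest of its group, the difference was -1.13 (adjusted p = 0.108), and without donor 2, the lowest, it was -2.28 (adjusted p = 0.00572). It was also lost without heart-beating donor 3 (-1.79, adjusted p = 0.0662), without animal 2 at 30 h (-1.80, adjusted p = 0.0539) and without animal 3 at 30 h (-1.50, adjusted p = 0.0857).

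Serpina7 was also lower at 30 h than at either other time after death. The log2 difference between 30 h and 16 h was -2.37 ± 0.50 (SE), a 5.17-fold lower signal at 30 h (limma, adjusted p = 0.0106), and it was the 11th lowest of all probe sets. Between 30 h and 4 h it was -2.64 ± 0.50, a 6.24-fold lower signal at 30 h (adjusted p = 0.00263), the 4th lowest. The comparison with 16 h missed the threshold without animal 1 at 16 h (-2.09, adjusted p = 0.0619), and the comparison with 4 h passed without any 1 of the 12 arrays. Between 16 h and 4 h the difference was -0.27 (adjusted p = 0.79). The differences from heart-beating donors were 0.91 at 4 h (95% interval -0.18 to 2.00, adjusted p = 0.978) and 0.64 at 16 h (-0.45 to 1.72, adjusted p = 0.538), intervals that hold both no change and a rise of more than 1 log2 unit.

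Serpina6, the gene of corticosteroid-binding globulin, differed at 4 h and 16 h from heart-beating donors by less than the spread between animals, and was lower in all 3 animals at 30 h than in any heart-beating donor. Its log2 signals were 12.54, 12.64 and 12.64 in heart-beating donors, 12.63, 12.39 and 12.87 at 4 h, 12.69, 12.64 and 12.66 at 16 h, and 12.41, 12.42 and 12.14 at 30 h. The 30 h arrays lay below every heart-beating and 16 h array and overlapped the 4 h arrays through animal 2 at 4 h. The difference from heart-beating donors at 30 h was -0.28 ± 0.11 (SE; 95% interval -0.52 to -0.05), with an unadjusted p of 0.0207 and an adjusted p of 0.0851 in limma, so it was not called. Against 16 h it was -0.34 (adjusted p = 0.0624) and against 4 h -0.31 (adjusted p = 0.0656). With animal 2 at 4 h left out of the fit, the adjusted p was 0.042 for 30 h against heart-beating donors, with the difference itself unaltered, and the same held without animal 3 at 4 h.

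Ttr, the gene of transthyretin, had log2 signals of 13.84, 13.91 and 13.92 in heart-beating donors, 13.78, 13.90 and 13.90 at 4 h, 13.81, 13.79 and 13.80 at 16 h, and 13.62, 13.75 and 13.80 at 30 h. All arrays at 16 h and at 30 h lay below the lowest heart-beating array, while the 4 h arrays overlapped it. The differences from heart-beating donors were -0.03 at 4 h, -0.09 at 16 h (adjusted p = 0.469) and -0.17 ± 0.06 (SE) at 30 h (adjusted p = 0.0901, limma), so the ordered means did not pass the test. After cyclic loess normalization the 30 h difference was 0.06, with the opposite sign.

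A further probe set carries the symbols Mt1f, Ttr and Mt1 together. It cannot be tied to transthyretin rather than to the metallothionein symbols and was not counted as a carrier. It read 12.76 ± 0.40 in heart-beating donors, 12.19 ± 0.94 after 4 h, 13.42 ± 0.24 after 16 h and 11.41 ± 0.75 after 30 h (SD, n = 3 each). Its difference at 30 h was -1.35 against heart-beating donors (adjusted p = 0.0372) and -2.01 against 16 h (adjusted p = 0.00946, limma), sizes that the probe set with Ttr as its only symbol did not have.

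Rbp4, the gene of the plasma retinol carrier, had log2 signals of 13.56, 13.68 and 13.61 in heart-beating donors, 13.58, 13.61 and 13.64 at 4 h, 13.56, 13.54 and 13.58 at 16 h, and 13.57, 13.67 and 13.65 at 30 h. The groups overlapped at every time with heart-beating donors, and only the 16 h and 4 h arrays stood apart, with 16 h lower. The difference from heart-beating donors at 30 h was 0.01 ± 0.06 (SE; 95% interval -0.11 to 0.14, adjusted p = 0.915). It became 0.23 after cyclic loess normalization (adjusted p = 0.0231, limma).

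Gc, the gene of the vitamin D-binding protein, was read by a bright and a dimmer probe set. The bright one, 1368288_at, had log2 signals of 13.77, 13.80 and 13.78 in heart-beating donors, 13.84, 13.81 and 13.81 at 4 h, 13.79, 13.75 and 13.75 at 16 h, and 13.74, 13.78 and 13.77 at 30 h. The 4 h arrays lay above all heart-beating arrays, by a mean of only 0.04 (adjusted p = 0.996), and the 30 h difference was -0.02 (95% interval -0.13 to 0.10, adjusted p = 0.859, limma). The dimmer one, 1368289_at, had signals of 10.24, 10.29 and 10.05 in heart-beating donors, 10.33, 10.27 and 10.32 at 4 h, 10.45, 10.07 and 10.18 at 16 h, and 9.62, 9.95 and 10.22 at 30 h. Here 2 of the 3 animals at 30 h were below every other array, and animal 3 was not.

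The dimmer Gc probe set differed at 30 h by -0.26 ± 0.13 (SE) from heart-beating donors (adjusted p = 0.198) and by -0.38 from 4 h (adjusted p = 0.068, limma). Without animal 3 at 30 h the first of these was -0.41 (adjusted p = 0.0345) and the second -0.52 (adjusted p = 0.0103), and the difference from 16 h was -0.45 (adjusted p = 0.0362), so the probe set was called in all 3 comparisons. The distance between the 2 Gc probe sets averaged 3.83 ± 0.29 log2 units at 30 h and 3.59 ± 0.12 in heart-beating donors (SD, n = 3 each), a difference of 0.25 (exact two-sided permutation test, p = 0.2). With 3 arrays against 3, 0.1 is the smallest p this test can give.

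Alb, the albumin gene, was read at the top of the scale. Its probe set 1367555_at was the brightest of all probe sets on each of the 12 arrays, so its value is the maximum of each array, and it ranged over 0.0226 log2 units from the lowest array to the highest, the smallest range of any probe set. It took 8 distinct values, and 4 of the 12 arrays shared the value 14.4947. The group means were 14.50 in heart-beating donors, 14.50 after 4 h, 14.49 after 16 h and 14.50 after 30 h. The 30 h difference was 0.00, with a 95% interval of -0.11 to 0.11 that comes mostly from the spread limma borrows from other probe sets. Quantile normalization, a step of standard RMA, gives the brightest probes of every array the same values, so these numbers do not measure whether the albumin transcript changed.

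The second Alb probe set, 1367556_s_at, had log2 signals of 14.23, 14.22 and 14.25 in heart-beating donors, 14.19, 14.24 and 14.26 at 4 h, 14.21, 14.22 and 14.24 at 16 h, and 14.14, 14.20 and 14.20 at 30 h. The 30 h arrays lay below the heart-beating arrays without overlap, by a mean of -0.05 ± 0.05 (SE; adjusted p = 0.559, limma). After cyclic loess normalization the brighter probe set was higher at 30 h than in heart-beating donors by 0.27 (adjusted p = 0.0217), and the second by 0.20 (adjusted p = 0.0555).

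**Figure D2:**
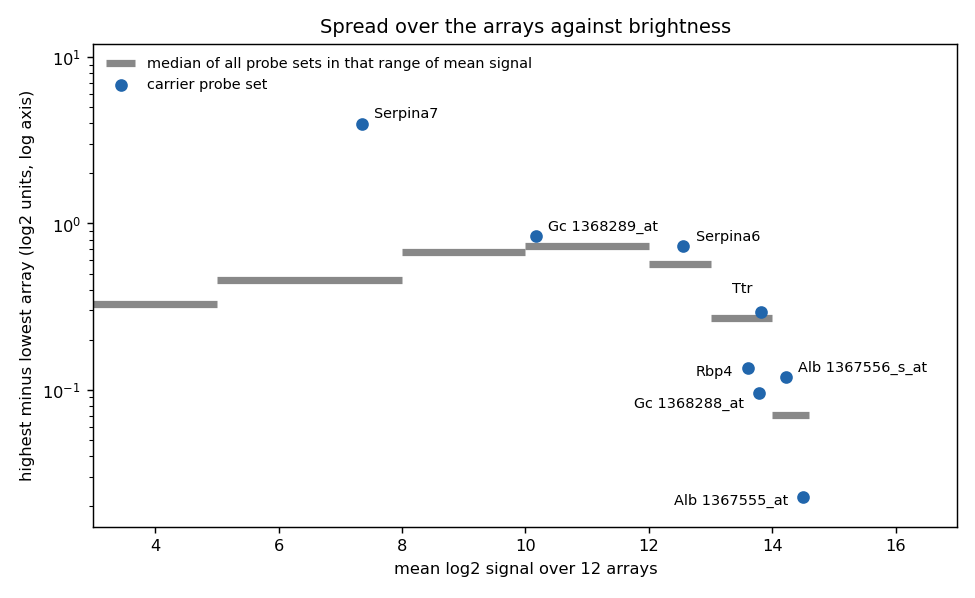
Range over the 12 arrays (highest minus lowest log2 signal, on a log axis) against the mean log2 signal of each carrier probe set (points), with the median range of all probe sets in bands of mean signal (bars). The range narrows towards the top of the scale, to 0.0226 for the brighter Alb probe set, and Serpina7 stands far above its band at 3.97. The median range is also smaller for means below 8 than for means of 8 to 12.

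The narrowing was not peculiar to Alb. The median range over the 12 arrays was 0.729 log2 units for the 891 probe sets with a mean of 10 to 12, 0.57 for the 125 between 12 and 13, and 0.269 for the 58 between 13 and 14. The largest range among those 58 was 1.76. Dim probe sets also had smaller ranges, with a median of 0.457 for means of 5 to 8 and 0.328 for means below 5. The 2 probe sets above 14 were those of Alb. Ttr, with a range of 0.295, lay above the median of its band, and Rbp4 (0.135) and the brighter Gc probe set (0.0951) lay below it. The range of Serpina6 was 0.731, above that of 82.8% of all probe sets, and that of Serpina7 was 3.97, above that of 99.97%. The small differences of Ttr, Rbp4, Alb and the brighter Gc probe set were thus measured where the median range was smallest. A bright probe set without a call is not shown to be unchanged. For Ttr, Rbp4 and Gc, whether the scale or steady expression kept the differences small was not tested.

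**Figure D3:**
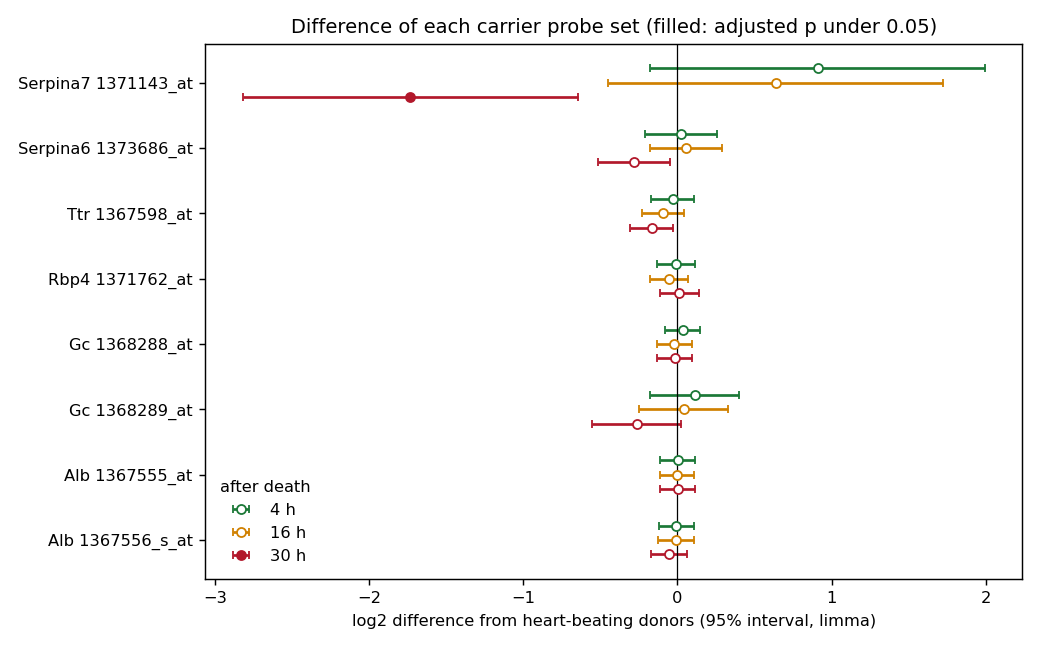
Log2 difference of each carrier probe set from heart-beating donors at 4, 16 and 30 h (horizontal axis, with 95% intervals from limma); filled points have an adjusted p under 0.05. The single filled point is Serpina7 at 30 h, at -1.73.

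Counted together, 1 of 8 carrier probe sets was called at 30 h against heart-beating donors, when 19.7% of all 31042 probe sets were called and 9.36% were called lower. The share among the carriers was near that background. At an unadjusted p under 0.05 there were 3 carriers (Serpina7, Serpina6 and Ttr), when 31.6% of all probe sets had such a p. Arrays at 30 h lay below those of heart-beating donors without overlap for 4 of 8, against 16.6% of all probe sets. The median log2 difference of the 8 was -0.11, beside 0.01 over all probe sets.

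At 4 h, 0 of 8 were called in limma and 0 had an unadjusted p under 0.05, with 0.0226% of all probe sets called and 5.27% at that unadjusted p. The brighter Gc probe set was the 1 carrier whose 4 h arrays all lay higher, which was so for 7.23% of all probe sets. At 16 h, 0 of 8 were called, where 4.67% of all probe sets were, and 0 had an unadjusted p under 0.05, against 19.1% of all. Ttr was the 1 carrier with 16 h arrays below heart-beating arrays without overlap (15.7% of all). The medians of the 8 differences were 0.01 at 4 h and -0.00 at 16 h, beside 0.00 and -0.02 over all probe sets.

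Between times after death, Serpina7 was again the only carrier called. It was 1 of 8 for 30 h against 16 h, with 10.2% of all probe sets called and 5.95% called lower, and arrays at 30 h lay below those at 16 h without overlap for 3 of 8 (12.9% of all). It was also 1 of 8 for 30 h against 4 h, with 18.9% called and 8.62% called lower, and 3 of 8 were lower at 30 h than at 4 h without overlap (16.1% of all). For 16 h against 4 h, 0 of 8 were called in limma, and 0 had an unadjusted p under 0.05, with 7.82% of all probe sets called and 23.2% at that unadjusted p. Rbp4 and the brighter Gc probe set were lower at 16 h than at 4 h without overlap, 2 of 8 against 17.9% of all. All comparisons with 30 h share the same 3 arrays, and so do those with heart-beating donors.

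The genes nearest to Serpina7 in profile were Igfbp2, Cfhr4 and Serpina3m, by the root mean square distance over the 12 arrays of log2 values from each gene's own heart-beating mean. The distances were 0.795, 0.862 and 0.87 log2 units among 14211 genes, where Serpina7 itself lay 1.21 from its heart-beating mean, so none follows it closely. Igfbp2 encodes a plasma carrier of insulin-like growth factors, Cfhr4 a complement factor H-related protein, and Serpina3m a serpin. The 3 genes were picked for nearness on these same 12 arrays, so likeness to Serpina7 follows from the choice. Igfbp2 shared the single highest array with Serpina7, animal 3 at 4 h. In heart-beating donors both were highest in donor 1 and lowest in donor 2.

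At 30 h Igfbp2 averaged 8.28, against 8.84 in heart-beating donors, a difference of -0.56 that was not called (adjusted p = 0.258, limma). Cfhr4 averaged 8.82 at 30 h and 10.02 in heart-beating donors, a fall of 1.20 log2 units (adjusted p = 8.38e-05). Serpina3m averaged 9.47 at 30 h and 10.40 in heart-beating donors, a difference of -0.93 (adjusted p = 0.00137). Since these genes were picked on the same arrays, their lower means at 30 h are no separate support for the fall of Serpina7. In heart-beating donors Cfhr4 ranged over 9.88 to 10.15 and Serpina3m over 10.22 to 10.50. Both ranges are far narrower than the 6.29 to 8.60 of Serpina7.

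**Figure D4:**
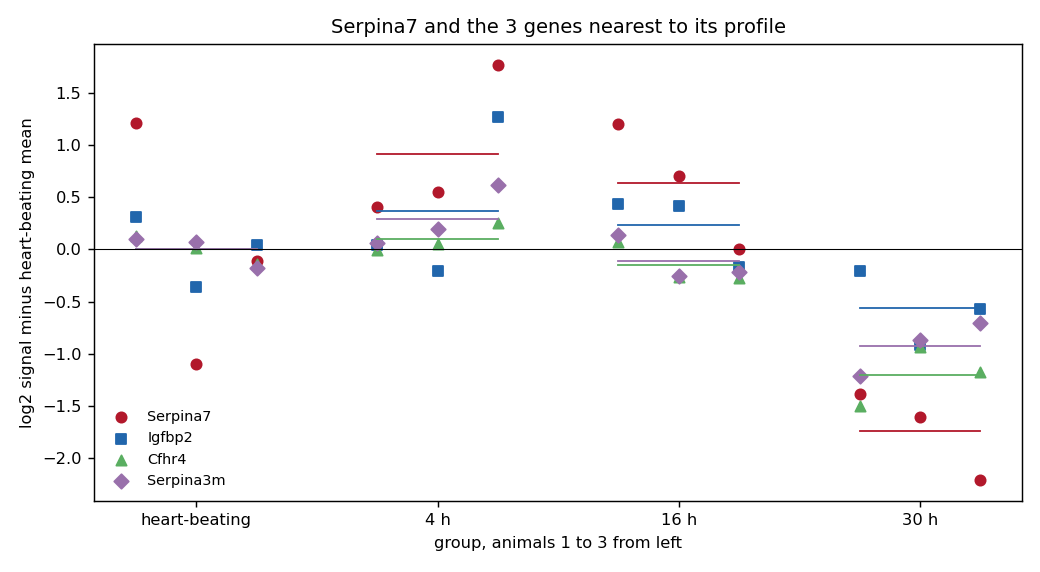
Log2 signal minus the heart-beating mean (vertical axis) of Serpina7 and of the 3 genes nearest to its profile, Igfbp2, Cfhr4 and Serpina3m, on each array; animals 1 to 3 run from left to right in each group and lines are group means (n = 3). All 4 genes have negative means at 30 h, which the choice of near profiles favours. The heart-beating donors are spread widely in Serpina7 and narrowly in Cfhr4 and Serpina3m.

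Genes that handle the same ligands were followed by 1 probe set each, the brightest of the gene. Of all 14217 genes read this way, 12.5% were called higher and 10.5% lower at 30 h against heart-beating donors, and 4.3% higher and 1.3% lower at 16 h. Of 17 measured genes of thyroid hormone handling, 3 fell and 2 rose at 30 h against heart-beating donors, and 12 were not called. Thrsp, a lipogenic gene responsive to thyroid hormone, fell by 0.75 ± 0.09 log2 units (SE, adjusted p = 0.000134), and its other 2 probe sets were called lower with larger differences, -2.32 and -2.19. Dio1, the deiodinase that turns thyroxine into the active hormone, fell by 0.38 (adjusted p = 0.00629). Ncor1, a corepressor of the thyroid hormone receptor, rose by 0.29 (adjusted p = 0.00629), as did 1 of its other 2 probe sets. At 16 h 1 of the 17 was called, the receptor gene Thrb, which was higher by 0.53 (adjusted p = 0.00231), although none of its other 3 probe sets was called. The median of the 17 differences at 30 h was -0.10.

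Of 15 measured genes of glucocorticoid handling, 1 fell and 0 rose at 30 h, with a median of -0.13. The called gene was Tdo2, a tryptophan-degrading enzyme induced by glucocorticoids, which fell by 1.20 ± 0.16 log2 units (adjusted p = 0.000266, limma). At 16 h 1 rose, Per1, a clock gene that glucocorticoids induce, by 0.65 (adjusted p = 0.006). With 1 probe set per gene tested in place of all probe sets, the counts were 2 lower at 30 h and 2 higher at 16 h. At an unadjusted p under 0.05 in limma there were 9 of the 15 at 16 h, in both directions, when 19.1% of all probe sets had such a p.

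Of 24 measured genes of vitamin A handling, 4 fell and 0 rose at 30 h, while the median of the 24 was 0.04, and at 16 h 0 were called in limma (8 at an unadjusted p under 0.05). Dgat1, which esterifies diacylglycerol and retinol, fell by 0.48 (adjusted p = 0.00117), and Rxra, the retinoid X receptor alpha, by 0.40 (adjusted p = 0.0192). The retinol dehydrogenase genes Rdh10 and Rdh11 fell by 0.49 (adjusted p = 0.0145) and 0.34 (adjusted p = 0.0302). The second Rdh10 probe set, with -0.09, was not called.

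Of 6 measured genes of vitamin D handling, 2 rose and 0 fell at 30 h, and 0 were called at 16 h in limma (1 at an unadjusted p under 0.05). Dhcr7, the reductase that removes the precursor of vitamin D into cholesterol synthesis, rose by 0.54 ± 0.14 (adjusted p = 0.0165, limma). Cyp27a1, a mitochondrial enzyme of bile acid synthesis that also hydroxylates vitamin D, rose by 0.43 ± 0.12 (adjusted p = 0.025).

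Of 15 measured liver transcription factors known to act on carrier genes, 5 rose and 0 fell at 16 h, and 4 were called higher and 3 lower at 30 h. Without Hnf4a, whose probe sets disagreed at 30 h, 3 of 14 were higher and 3 lower at that time. The 5 at 16 h include Hnf4a by its brightest probe set, at 0.61 (adjusted p = 0.00876, limma). Its other 2 probe sets were not compared with it at 16 h, so that count carries the same limit. Dbp, a clock-controlled factor named for its binding to the albumin promoter, was higher at 16 h by 3.73 ± 0.19 log2 units (adjusted p = 4.35e-07), and its relative Tef by 1.11 (adjusted p = 0.000431, limma), where 1 of its other 2 probe sets was also called. At 30 h Foxa3 was lower by a difference of -0.82 (adjusted p = 0.00167). The brightest Hnf4a probe set was higher by 0.76 (adjusted p = 0.000435), but its other 2 probe sets lay at -0.61 and -0.39 and 1 of them was called lower, so the direction of Hnf4a is not settled.

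Of 19 measured genes of other plasma carriers, 4 fell and 1 rose at 30 h, with a median of -0.12, and 16 of the 19 lay below 0. Tcn2, the vitamin B12 carrier, fell by 0.48 (adjusted p = 0.00395), Apoh, a lipid-binding glycoprotein, by 0.31 (adjusted p = 0.00481) and Apoa1, the main protein of high-density lipoprotein, by 0.28 (adjusted p = 0.0294, limma). At 16 h 1 was called, Igfbp4, which rose by 0.34 (adjusted p = 0.00922). At 4 h, 0 of the 96 measured genes of these 6 lists were called in limma, and 10 had an unadjusted p under 0.05.

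RNA quality and the markers of some cell types moved with the 16 h and 30 h groups. The signal at the 3' end of Gapdh, read by control probe sets, was above that at its 5' end by a mean of 0.39 log2 units in heart-beating donors, 0.38 after 4 h, 1.05 after 16 h and 1.97 after 30 h. With that difference as a covariate in limma, 0 probe sets of the whole array were called at 30 h against heart-beating donors and 4438 had an unadjusted p under 0.05. Serpina7 then had a difference of -2.69 (unadjusted p = 0.196, adjusted p = 0.552). RNA quality and the time after death cannot be told apart here. The mean log2 signal of 15 hepatocyte markers was 11.18 to 11.28 at 30 h and 11.43 to 11.48 in heart-beating donors, with 3 lower and 0 higher. With 1 probe set per gene tested, 5 were lower and 0 higher.

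Of the markers of other cells, 9 of 16 Kupffer cell genes were lower at 30 h (array means 7.44 to 7.63, against 8.11 to 8.14 in heart-beating donors). Of 19 stellate cell and fibroblast genes 8 were higher (7.05 to 7.41 at 30 h and 6.78 to 6.97 in heart-beating donors), and so were 4 of 8 erythroid genes (7.56 to 8.03 at 30 h and 6.87 to 7.01 in heart-beating donors). Of 17 endothelial genes 2 were higher, of 9 cholangiocyte genes 1 was lower, and of 12 pancreatic acinar genes 2 were lower. Of all 14217 genes by their brightest probe set, 12.5% were called higher and 10.5% lower at 30 h. The endothelial, cholangiocyte and acinar counts were near those shares. At 16 h, 6 of 16 Kupffer cell genes were already lower (array means 7.62 to 7.83), and 3 of 8 erythroid genes (7.58 to 7.78), 3 of 17 endothelial genes and 2 of 19 stellate cell and fibroblast genes were higher, with 1 of those 19 lower. No hepatocyte, cholangiocyte or acinar marker was called at 16 h, when 4.3% of all genes were called higher and 1.3% lower. The part of cell composition in the fall of Serpina7 and in the differences of the listed genes was not tested.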

How the data were processed

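Each array measured hepatocyte RNA of 1 donor. The authors deposited log2 signals for each probe set, and the submitters' processing notes name RMA and limma. Their versions and settings are not given in the sources consulted. Intensities have no count depth, so the number of arrays limits the precision. The arrays had medians of 5.83 to 5.90 and maxima of 14.49 to 14.51, so each value is relative to its own array.

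Of 31099 probe sets, 57 controls were left out. A model with 1 mean per label group was fitted to the other 31042 on all 12 arrays with limma 3.58.1 (lmFit, eBayes) in R 4.3.3, with 8 residual and 4.93 prior degrees of freedom, no filter and no further normalization. A probe set was called at a Benjamini-Hochberg adjusted p under 0.05 over all 31042. The distance between the 2 probe sets of Gc, and between the 2 of Alb, was compared by exact permutation (SciPy 1.17.1). The fit was also run on simulated arrays with independent normal noise and, for each probe set, the same spread in all groups. The group SDs of Serpina7, from 0.42 to 1.16, differ from that setting. The outcome of this run is not given here and is no support for the calls.

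Named genes were every carrier probe set, up to 4 called genes per list with the smallest p at 16 h or 30 h, and the 3 genes nearest to a called carrier. The carriers, the 6 ligand and regulator lists and the 7 lists of cell type markers were chosen with earlier results of these data known. Replicate numbers only name animals. The alternatives were other normalizations, a filter on dim probe sets, 1 probe set per gene, other variance models, array weights, fits of fewer groups, a replicate block, an RNA quality covariate and leaving out each array.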

Additional observations from a re-analysis of the deposited data

Results flagged for a closer look

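The arrays of Serpina7 lay on opposite sides of the heart-beating mean at different times after death, although only the 30 h group differed from the others by the test. All 3 arrays at 30 h lay below the heart-beating mean of 7.39, while all 3 at 4 h and all 3 at 16 h lay above it, the lowest at 16 h being 7.40. The log2 difference between 30 h and 16 h was -2.37 (limma, adjusted p = 0.0106) and between 30 h and 4 h -2.64 (adjusted p = 0.00263). The 4 h and 16 h groups overlapped the heart-beating donors and did not pass the test against them, so no early rise is shown.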

How the results depend on the processing

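The count of called carriers was 1 of 8 at 30 h against heart-beating donors. It was 4 after cyclic loess, where Serpina7 was lower but Rbp4 (0.23) and the brighter probe sets of Alb (0.27) and Gc were higher. It was 2 with array weights, 0 with a variance trend and robust settings and 0 in a fit of only the 2 groups. It was 0 with the Gapdh covariate, and 0 to 2 when 1 array was left out. For 30 h against 16 h it was 2 after cyclic loess, Serpina7 lower and Rbp4 higher by 0.23. It was 2 among the upper 50% of probe sets and 2 with array weights, 0 with the covariate, and 0 to 2 with 1 array left out. For 30 h against 4 h it was 4 after cyclic loess. Serpina7 and the dimmer Gc probe set were lower there, and Rbp4 and the brighter Alb probe set higher. It was 2 after a further quantile normalization and 2 with array weights, 0 with the covariate, and 1 to 2 with 1 array left out. The counts at 4 h, at 16 h and for 16 h against 4 h were 0 under every alternative run. The cause of these shifts was not tested. Cyclic loess turned the brighter Gc probe set to 0.21 at 30 h against heart-beating donors (adjusted p = 0.0466) and the brighter Alb probe set to 0.23 at 30 h against 4 h (adjusted p = 0.0481).

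Serpina7 stayed lower at 30 h in all 3 comparisons under every alternative. Against heart-beating donors its adjusted p ranged from 0.00572 to 0.552; it was 0.0869 with the variance trend and 0.0577 with only the 2 groups, and 8 of 12 fits without 1 array called it. Without animal 3 at 30 h the count remained 1 but the called probe set was the dimmer one of Gc. Serpina6 was called at 30 h against heart-beating donors with array weights (-0.36, adjusted p = 0.0393). Over all probe sets, calls at 30 h against heart-beating donors numbered 6130, and 3318 with 1 probe set per gene, 4114 with only the 2 groups and 0 with the covariate. The animals' numbers did not pair the samples (correlations of deviations -0.27 to 0.11, with 2 of 18 pairs over 0.1). With the number as a replicate block the carrier counts were 1 at 30 h against heart-beating donors, 1 against 16 h and 1 against 4 h, and 0 in the other comparisons. The top of the scale limits what can be seen of Alb. The probe sets of Ttr and Rbp4 and the brighter one of Gc had means between 13 and 14. The median range there was 0.269 and the largest 1.76. Whether the scale or steady expression kept their differences small was not tested.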
